A study of Gallus gallus with 16 samples.

Results

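The predicted noncoding transcripts of HD11 cells were taken as the rows of the expression table whose accession begins with XR_, the RefSeq prefix for a computer-predicted RNA model without a coding sequence. Of 569 such rows among 6492 in all, 219 were selected on their measured level, a mean of 10 or more in at least 1 treatment group when the signal of each library is set to sum to 1000000. These 219 transcripts are described here, and their levels are therefore a description. HD11 is an established chicken cell line labelled as macrophage-like, and the cells were either left untreated with vehicle (CTR), stimulated with lipopolysaccharide at 100 ng/mL (LPS), given procyanidin B1 alone (PB1), or given procyanidin B1 before lipopolysaccharide (LPS + PB1). Lipopolysaccharide, from the cell envelope of Gram-negative bacteria, activates Toll-like receptor signalling, and procyanidin B1 is a plant polyphenol built of a pair of flavanol units, which the study's methods give at 100 μg/mL. The labels state 6 h of LPS exposure, whereas the methods state a longer time. The labels also mention another compound, SeMC, in the seeding medium without tying it to a group. Each group held 4 libraries, all labelled as the same cell line. No donor or genotype difference between them is described, and genotype was not tested. Nothing states that the 4 libraries came from separate cultures, so the p-values measure only the spread between these libraries.

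RNAs without a coding sequence fall into small classes with fixed functions and a large class of long noncoding RNAs, most of which are spliced and polyadenylated in the same way as messenger RNAs. Some long noncoding RNAs act on chromatin or on neighbouring genes, others bind proteins or microRNAs in the cytoplasm, and for many no function is known. In mammalian macrophages a number of them are switched on by Toll-like receptor ligands, together with the messenger RNAs of inflammatory mediators. An XR_ accession names a transcript model, not a class of gene: it is also given to noncoding splice forms of protein-coding genes.

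None of the 569 XR_ accessions (0 of 569) was found in the RefSeq annotation of the GRCg7b chicken assembly used here, although 1677 of 1682 curated coding rows (NM_) and 20 of 20 curated noncoding rows (NR_) were. The predicted coding rows (XM_) behaved in the same way, with 0 of 4221 found. Hence no gene name, position, length, RNA class or sequence is given for the predicted transcripts below, which are named by accession only. In the GRCg7b annotation, 69.2% of the XR_ accessions belonged to long noncoding RNA genes and 26.4% to protein-coding genes. None of the 569 rows is among these, so the shares may not hold for them. The methods state that reads were counted per gene, and the 1697 rows with a gene symbol held 1696 different symbols. A row may therefore carry all reads of its gene, those of coding transcripts included. The levels and responses below are thus those of rows, and whether the RNA was noncoding was not tested. Of the 8 curated noncoding rows that passed the same limit on level, 7 were transcripts of protein-coding genes, among them ATP2A2 (the calcium pump of the endoplasmic reticulum), EIF4A2 (a translation initiation helicase) and SMAD6 (an inhibitor of bone morphogenetic protein signalling), and the remaining 1 was the microRNA gene MIR196B. The curated long noncoding RNA MIR155HG, the host transcript of a microRNA known for its part in macrophage activation, was near the detection floor, with group means of 0.681 to 1.47 on the same scale.

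The libraries were of even depth, with 4173989 to 4414942 recovered reads each. In every group the mean of replicates 1 and 2 was set against that of replicates 3 and 4. The median difference between these pairs for the 219 transcripts ranged from 0.15 (PB1) to 0.24 (LPS + PB1) on the log2 scale. Differences within a pair were not summarized. The labelled cell type could be checked only through curated rows, which held 4 of 18 macrophage genes. Of those reported here, CYBB, a subunit of the phagocyte NADPH oxidase, had no read in any library. MMP9, a secreted metalloproteinase, had at most 1 and MRC1, the mannose receptor, had at most 3. Another of the 4 is not reported here, and the rest of the list was not among the named rows. These values therefore do not settle whether macrophage genes were absent. By contrast, 7 of 13 fibroblast or mesenchymal genes were present at a summed level of 52215 to 91141. COL1A2, a chain of type I collagen, had the highest mean of these in CTR, LPS and LPS + PB1. In PB1 it was VIM, with 30039 against 16469 for COL1A2. The level of the haemoglobin gene HBA1 varied widely within groups, from 0.197 to 1.72 in the CTR libraries, 0.206 to 74.9 with LPS, 0.200 to 129 with PB1 and 0.224 to 302 with LPS + PB1, and the groups overlapped. The part of cell identity or of contaminating cells in the values below was not tested. In RNA from whole cultures, fewer cells of a type and less RNA per cell cannot be told apart.

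Predicted noncoding transcripts contributed a small and narrow share of the signal. All 569 XR_ rows together held 2.72% ± 0.0198 (SD, n = 4) of the signal in CTR libraries, 2.86% ± 0.0860 in LPS libraries, 2.85% ± 0.0436 with PB1 and 2.71% ± 0.0510 with LPS + PB1. The libraries of CTR lay between 2.69% and 2.74%, those of LPS between 2.77% and 2.94%, those of PB1 between 2.79% and 2.90%, and those of LPS + PB1 between 2.67% and 2.78%. The ranges of LPS and PB1 each lay above that of CTR, and the range of LPS + PB1 overlapped those of CTR and LPS. The median log2 fold change of the 219 was -0.02 with LPS and -0.02 with PB1 against CTR, after a further scaling between libraries (TMM). The shares were computed without that scaling, so these medians cannot be set against them. Whether the typical transcript rose in share was not tested. The share also depends on the other rows. The 10 highest rows of a library held 16.9% to 17.8% of its signal in CTR and 14.1% to 14.8% in PB1. What moved the share was not tested.

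**Figure D1:**
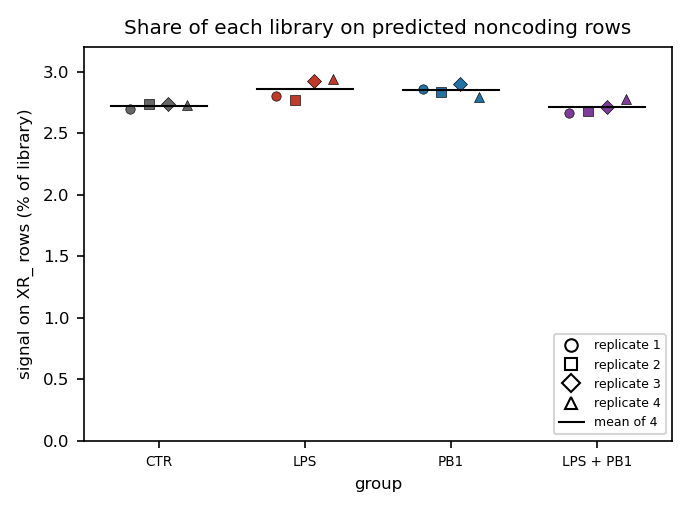
Share of the library's signal on XR_ rows (vertical axis, percent) in each of the 16 libraries, by group, with a line at the mean of 4. All libraries fall between 2.67% and 2.94%, with the LPS and PB1 libraries above those of CTR.

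XR_ rows passed the limit on level less often than coding rows, 38.5% against 68.2% (4023 of 5903 NM_ and XM_ rows). No read in any library was recorded for 15.6% of XR_ rows and for 8.69% of coding rows. Past the limit, the noncoding transcripts had a lower median and a lower maximum of signal than the coding ones, and copies cannot be compared because the lengths are not known. Their mean level over the 16 libraries had a median of 59.3 (quartiles 26.0 and 152) and a maximum of 1346, whereas the 4023 coding rows had a median of 73.2 (quartiles 32.2 and 170) and a maximum of 32710. Most were present under every condition: 191 of 219 (87.2%) passed the limit in all 4 groups, near the 88.6% of coding rows. The limit was passed in just 1 group by 11 (5.02%), against 4.05% of coding rows. In 2 groups it was passed by 6 (2.74%) and in 3 groups by 11 (5.02%), against 3.21% and 4.15% of coding rows. Transcripts that passed in some groups only were members through the groups in which they were high. They include 14 with a mean under 10 over all 16 libraries. For all of them the contrast of high with low groups follows wholly or in part from the selection. For the 14 it is given for named transcripts without a test. The 14 stay in the counts and shares of calls below, which therefore include calls that follow from the selection. Counts without the 14 are given with the dependence on processing, and still include transcripts that passed in some groups only. The limit itself fell in a continuous range of values. XR_005855799.1 and XR_005847509.2 lay just outside, with a highest group mean of 9.97 in LPS + PB1 and 9.46 in LPS, and XR_006936724.1 and XR_006933951.1 just inside, with 10.4 in PB1 and 10.4 in LPS + PB1.

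Pooled over levels, the replicate spread of the noncoding transcripts was close to that of coding rows. The median SD of the log2 signal was 0.15 for both in CTR, 0.16 against 0.14 in LPS, 0.14 against 0.13 in PB1 and 0.18 for both in LPS + PB1. By mean level, the median SD averaged over groups was 0.31 against 0.38 under 10 and 0.20 against 0.22 at 10 to 30. It was 0.17 against 0.15 at 30 to 100, 0.13 for both at 100 to 300 and 0.16 against 0.14 at 300 and over. At 100 to 300 it was 0.15 against 0.11 in LPS, but 0.11 against 0.12 in CTR. Differences between pairs of replicates were more frequent under LPS. Replicates 1 and 2 lay apart from replicates 3 and 4 by at least 1.5-fold, without overlap, for 10 of the 219 transcripts under CTR, 29 under LPS, 6 under PB1 and 40 under LPS + PB1. The corresponding shares, 4.57%, 13.2%, 2.74% and 18.3%, were near those of coding rows, 5.89%, 10.8%, 1.84% and 15.8%.

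**Figure D2:**
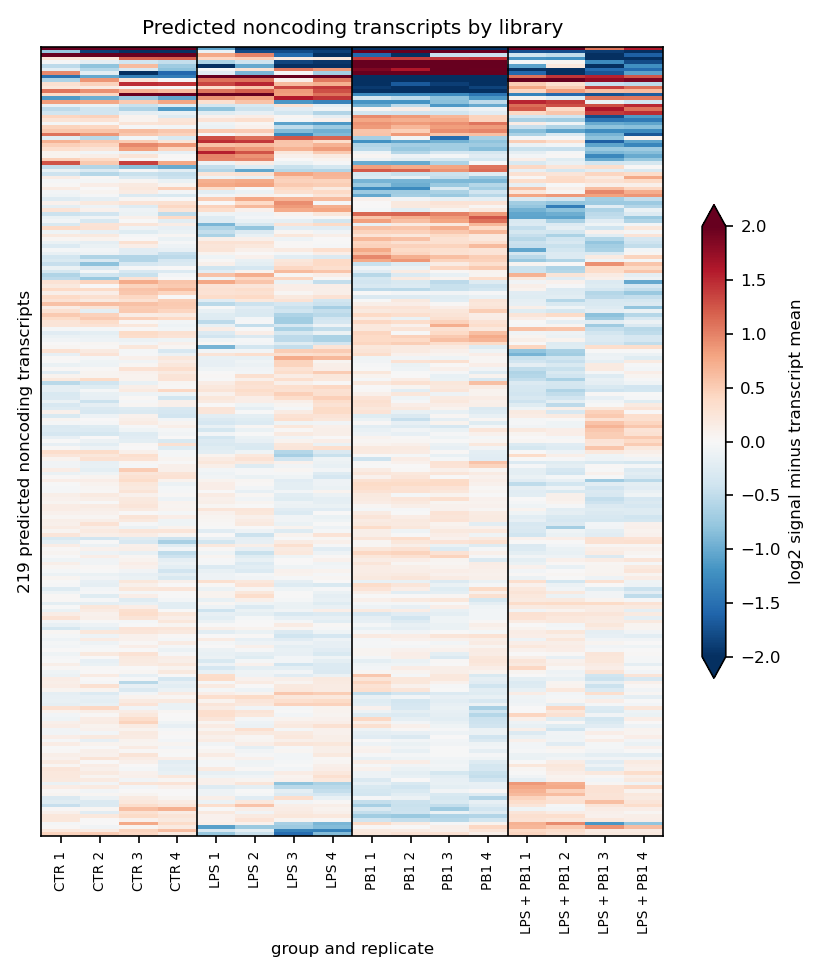
Normalized signal of the 219 predicted noncoding transcripts in the 16 libraries, as the log2 difference from each transcript's mean (colour, which saturates beyond 2 in either direction). Most rows stay near their mean, and the strong departures include that of XR_005849533.2, which is low in LPS and in PB1.

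The transcripts with the highest signal, irrespective of their unknown length, were considered first. The 8 highest held 23.2% to 28.8% of the signal of all 219 in each library. Levels are given from here as normalized signal, the deposited value on the scale of 1000000 per library after TMM scaling between libraries. They comprised transcripts of steady level as well as some of those that varied most between replicates.

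XR_006933823.1, the highest of all, had a normalized signal of 1087, 1083, 2081 and 2093 in the 4 CTR libraries, 1218, 1279, 1036 and 1062 in LPS, 2432, 2388, 2463 and 2513 in PB1, and 408, 400, 64.0 and 75.8 in LPS + PB1. All PB1 libraries were above all others and all LPS + PB1 libraries below, and the replicate pairs separated within both CTR and LPS + PB1. The transcript was lower in LPS + PB1 than in PB1 by a log2 fold change of -3.87 (SE 0.57, limma adjusted p = 0.000297) and than in LPS by -2.77 (SE 0.60, limma adjusted p = 0.00777). Against CTR the log2 fold change was -3.17 (SE 0.61, limma adjusted p = 0.00353), made up of -1.43 in replicates 1 and 2 and -4.91 in replicates 3 and 4. The direction was thus shared by both pairs, but the size was not.

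XR_006937809.1 rose the most with LPS among these 8. Its signal was 342, 380, 448 and 363 in CTR, 1392, 1300, 2252 and 2013 in LPS, 588, 527, 425 and 338 in PB1, and 784, 632, 1566 and 1544 in LPS + PB1. No LPS library overlapped a CTR library, and the log2 fold change was 2.15 (SE 0.17, limma adjusted p = 9.93e-06). With PB1 present, LPS raised it by 1.19 (SE 0.30, limma adjusted p = 0.00818), and the difference between these responses, the interaction term, was -0.96 (SE 0.38, limma adjusted p = 0.0499). That call was at the threshold and was lost in 13 of 20 other settings, among them RLE size factors (limma adjusted p = 0.0651) and leaving out any CTR library, the highest limma adjusted p being 0.103. The replicate pairs again separated in LPS and in LPS + PB1, and LPS + PB1 against LPS, at -0.69, was called with the replicate number as a block (limma adjusted p = 0.00141) and not without it (limma adjusted p = 0.133).

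XR_006937703.1 moved in opposite directions with the 2 treatments. The signal was 650, 642, 677 and 602 in CTR, 1083, 1119, 913 and 895 in LPS, 347, 347, 353 and 353 in PB1, and 844, 872, 812 and 863 in LPS + PB1. The 4 groups did not overlap. Against CTR, the log2 fold change was 0.63 with LPS (SE 0.09, limma adjusted p = 0.000503) and -0.87 with PB1 (SE 0.06, limma adjusted p = 1.49e-07). The change with LPS was 0.58, just under 1.5-fold, with RLE size factors and also without LPS replicate 2.

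XR_005852290.2 was lower in PB1 alone than in the other groups. It stood at 710, 702, 790 and 729 in CTR, 642, 684, 707 and 705 in LPS, and 760, 767, 643 and 658 in LPS + PB1, but at 376, 361, 395 and 403 in PB1. The log2 fold change of PB1 against CTR was -0.93 (SE 0.07, limma adjusted p = 1.88e-07), and the interaction term was 0.98 (SE 0.10, limma adjusted p = 1.15e-06).

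XR_006932910.1 was higher in LPS + PB1, at 1858, 1841, 1334 and 1445, than in LPS, at 915, 953, 749 and 746, with a log2 fold change of 0.94 (SE 0.14, limma adjusted p = 0.00112). The CTR libraries had 1205, 1232, 1053 and 1151 and the PB1 libraries 882, 823, 953 and 975. XR_006935207.1 was lower in LPS, at 451, 496, 224 and 221, than in the CTR libraries, at 655, 632, 774 and 872, with a log2 fold change of -1.16 (SE 0.26, limma adjusted p = 0.00736). It stood at 610 to 670 in PB1 and 633 to 744 in LPS + PB1, and the fall with LPS was -0.44 in replicates 1 and 2 and -1.88 in replicates 3 and 4.

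XR_006937029.1 carried a wide replicate split in both LPS-treated groups, with 694, 820, 248 and 220 in LPS and 1585, 1456, 502 and 425 in LPS + PB1. The CTR libraries lay between 791 and 989 and the PB1 libraries between 244 and 384. LPS + PB1 was about as far above LPS in each replicate pair, a log2 fold change of 1.00 that was not called without the replicate block (limma adjusted p = 0.213) and was called with it (limma adjusted p = 2.5e-05). PB1 libraries were all below CTR libraries, by a log2 fold change of -1.66 (SE 0.13, limma adjusted p = 5.98e-07). XR_006936395.1 was called in none of the 5 comparisons, with a mean of 951 ± 79.5 for CTR, 925 ± 104 for LPS, 1009.9 ± 45.5 for PB1 and 1222 ± 254 for LPS + PB1 (SD, n = 4).

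**Figure D3:**
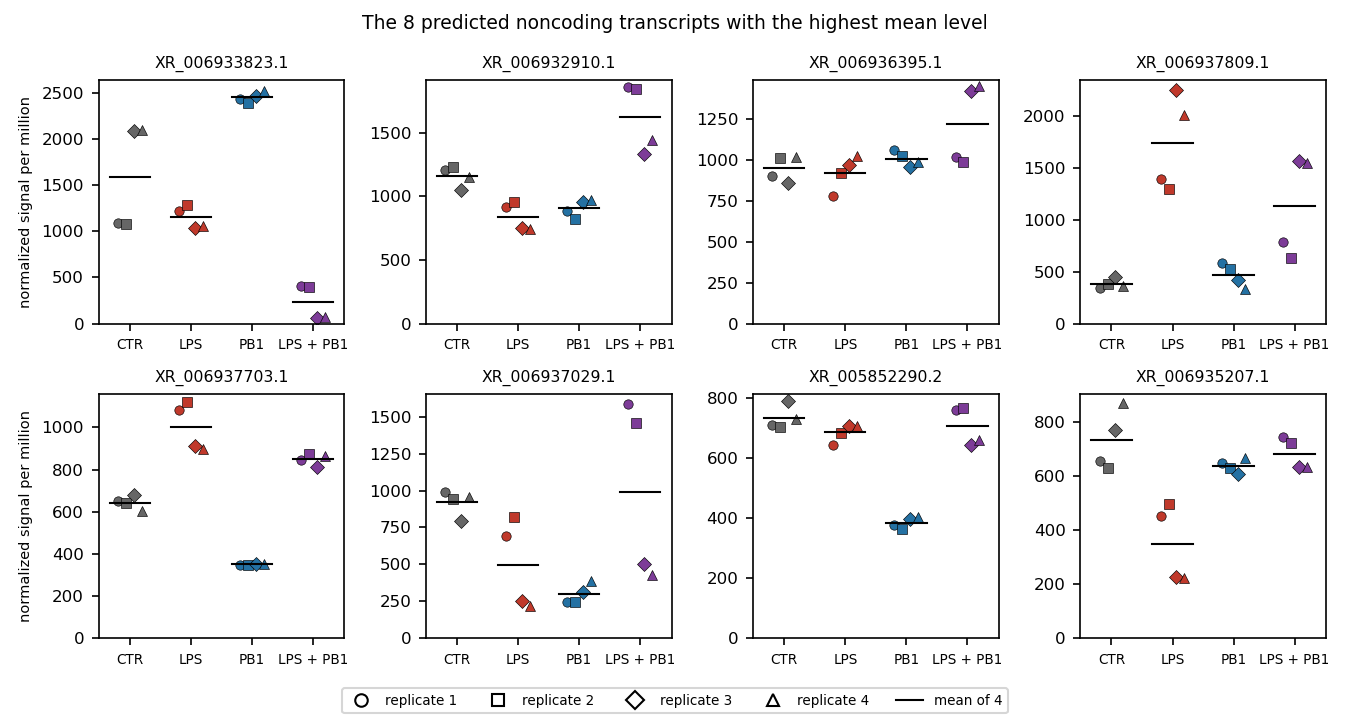
Normalized signal (linear axis from 0) of the 8 predicted noncoding transcripts with the highest mean level, in each of the 16 libraries, by group, with the group mean. XR_006933823.1 falls to between 64.0 and 408 in LPS + PB1, and XR_006936395.1 stays between 783 and 1458 in all libraries.

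The first comparison asked which transcripts responded to LPS. Of 216 noncoding transcripts tested, 12 rose and 13 fell, which is 11.6%, against 16.9% of all rows tested (9.37% higher and 7.49% lower) and 16.1% of coding rows past the same limit. A transcript was called at a limma adjusted p of at most 0.05 and a change of at least 1.5-fold. The median log2 fold change was -0.02 for the noncoding transcripts and -0.03 for all rows. With RLE size factors in place of TMM the split was 10 higher and 19 lower. The 4 and 4 libraries did not overlap for 27.3% of the noncoding transcripts and for 33.8% of all rows. Of the 25 called, 16 (64%) changed by at least 1.5-fold in the same direction within both pairs of replicates, close to the 66.2% of called coding rows. Replicates 3 and 4 alone gave 43 calls, and the means of the replicate pairs, as 2 samples a group, gave 9. For RLE, for single pairs and for pair means, here and below, no share over all rows is given. Those counts are therefore not read as a trait of these transcripts.

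The largest rise with LPS was that of XR_005846831.1, which passed the limit on level in LPS and LPS + PB1 only. Its contrasts of these groups with CTR and PB1 follow in part from the selection. Its signal was 2.56, 3.51, 2.80 and 2.74 in CTR and 54.5, 55.5, 51.2 and 42.8 in LPS, a log2 fold change of 4.14 (SE 0.15, limma adjusted p = 4.78e-08). PB1 libraries had 0.661, 1.80, 0.922 and 0.931, and LPS + PB1 libraries 15.1, 19.4, 20.7 and 17.0. The level under LPS was lower with PB1 than without it by a log2 fold change of -1.50 (SE 0.13, limma adjusted p = 5.59e-05). On the log2 scale, however, the rise with LPS was 4.16 in the presence of PB1 (SE 0.30, limma adjusted p = 1.68e-06), and the interaction term was 0.02 (SE 0.34, limma adjusted p = 0.976). PB1 replicates 1, 3 and 4 lay at or under the signal of 3 reads in their libraries (0.917, 0.927 and 0.961 before rounding down). The size of this rise and of the interaction term thus rests on few reads and on the added read, and equal responses were not shown.

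The largest fall was that of XR_005849533.2, with 111, 105, 142 and 157 in CTR and 3.53, 1.73, 1.52 and 1.29 in LPS. The log2 fold change was -6.09 (SE 0.29, limma adjusted p = 2.60e-07). XR_005849533.2 passed the limit on level in CTR and LPS + PB1 only, so its contrasts of these groups with LPS and PB1 follow in part from the selection. XR_005852202.2 had 7.69, 10.6, 14.5 and 13.6 in CTR and 2.11, 2.49, 0.434 and 0.206 in LPS, but was selected through its CTR level alone. Both were at the floor of 3 reads or fewer in every PB1 library, as described next.

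PB1 alone against CTR gave a larger number of calls. Of 217 transcripts tested, 21 rose and 21 fell, which is 19.4%, against 20.8% of all rows (10.4% in each direction) and 19.6% of coding rows. The median log2 fold change was -0.02 for the noncoding transcripts and 0.0033 for all rows. The libraries did not overlap for 37.3% of the noncoding transcripts and for 41.7% of all rows. Of the 42 called, 33 (78.6%) changed by at least 1.5-fold in the same direction within both pairs, against 81.7% of called coding rows. Most of these changes were small beside those of a few transcripts that were nearly absent in one of the groups.

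XR_006935206.1, selected through its PB1 level alone, was above the floor in PB1 alone, with 26.6, 22.9, 23.4 and 19.9, or 82 to 115 reads. It had at most 1 read in any CTR library, 2 in any LPS library and none in LPS + PB1. The signal in PB1 was at least 22.3-fold higher than in CTR and at least 23.7-fold higher than in LPS + PB1, both computed against 3 reads in a single library. XR_006933514.1, also selected through PB1 alone, had 15.8, 13.1, 10.4 and 8.13 in PB1 against 2.56, 1.14, 0.175 and 0.446 in CTR. No LPS + PB1 library held over 2 reads of it, so that PB1 alone was at least 12.1-fold higher.

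The opposite pattern was seen for XR_005849533.2, which had 0 to 3 reads in the PB1 libraries against 443 to 618 in CTR and was at least 134-fold lower. XR_005852202.2, at 32 to 55 reads in CTR, had 0 to 3 reads in PB1 and again 0 to 3 in LPS + PB1, at least 12.1-fold and at least 11.9-fold lower than CTR. Its highest level in any treated library was 2.49.

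**Figure D4:**
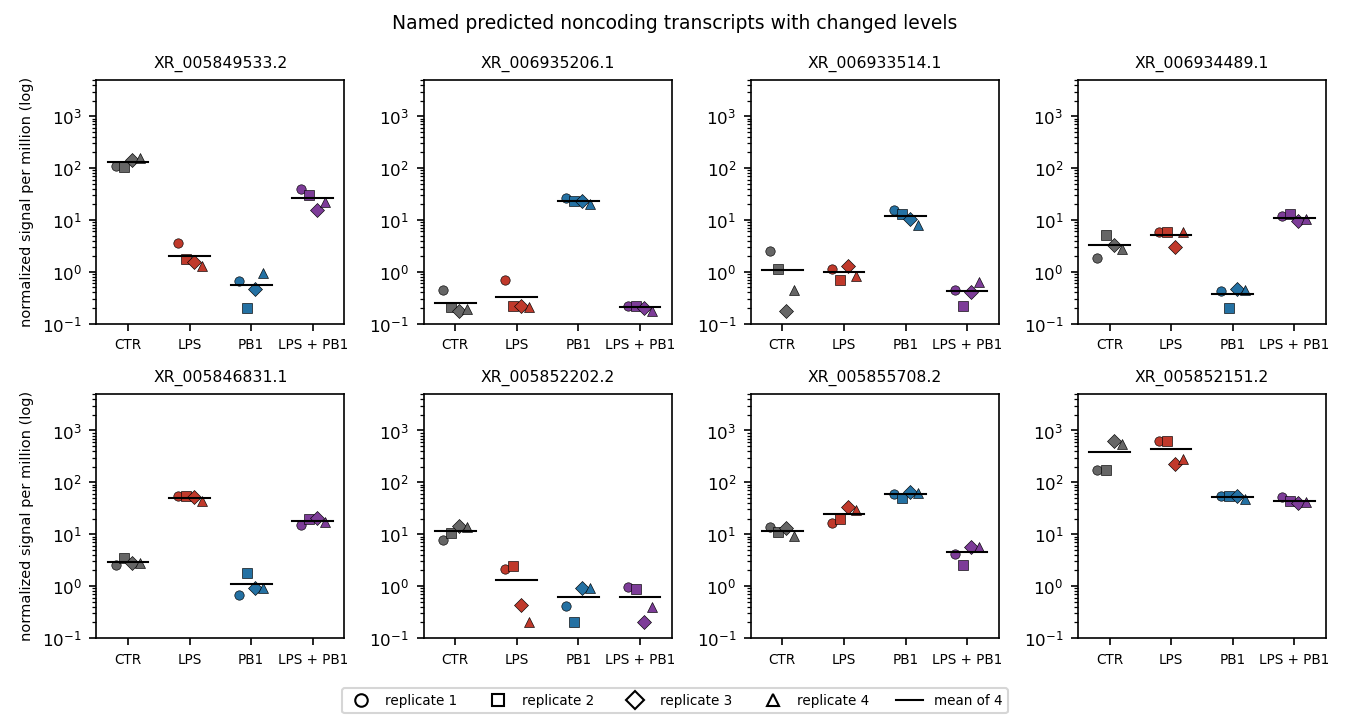
Normalized signal (log axis) of the named transcripts with the largest changes, in each of the 16 libraries, by group, with the group mean. XR_006935206.1 and XR_006933514.1, selected through PB1, are high in the PB1 libraries alone, and XR_005846831.1 is high in LPS and intermediate in LPS + PB1.

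In cells given both treatments, falls outnumbered rises. Against CTR, 13 transcripts rose and 26 fell of 216 tested, which is 18.1% called against 17.9% of all rows (8.59% higher and 9.34% lower) and 17.0% of coding rows. The median log2 fold change was -0.08 for the noncoding transcripts and -0.04 for all rows, and the libraries did not overlap for 34.3% and 33.2% respectively. Replicates 3 and 4 alone gave 61 calls, and the means of the replicate pairs gave 15. The largest rise was that of XR_005846831.1, 2.64 on the log2 scale (SE 0.18, limma adjusted p = 5.30e-06), and the largest fall, among transcripts not selected through a single group, was that of XR_006933823.1, given above.

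The comparison of LPS + PB1 with LPS asked what PB1 changed in stimulated cells. Of 215 transcripts tested, 12 rose and 28 fell, which is 18.6% against 17.7% of all rows (7.63% higher and 10.1% lower) and 17.0% of coding rows. The median log2 fold change was -0.07 against -0.0047 for all rows, and the share without overlap was 34.0% against 34.8%. With the means of the replicate pairs as 2 samples a group, 5 were called.

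XR_005849533.2, nearly lost under LPS alone, stood at 40.1, 30.2, 15.4 and 22.1 in LPS + PB1. It was higher than in LPS by a log2 fold change of 3.77 (SE 0.38, limma adjusted p = 0.000122) and lower than in CTR by -2.33 (SE 0.27, limma adjusted p = 0.000147). XR_006936309.1 also fell with LPS and was higher in LPS + PB1 than in LPS, but differed in the other contrasts with CTR. It had 186, 175, 190 and 207 in CTR, 85.9, 110, 111 and 100 in LPS, 186, 183, 198 and 244 in PB1, and 292, 263, 341 and 282 in LPS + PB1. Against CTR it was not called with PB1 alone and was called higher with LPS + PB1. That call was lost without LPS + PB1 replicate 3. The rise of LPS + PB1 over LPS was 1.54 (SE 0.11, limma adjusted p = 1.67e-05).

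XR_005852151.2 fell the most with PB1 in stimulated cells. The signal was 625, 638, 231 and 278 in LPS and 52.4, 43.8, 39.2 and 41.2 in LPS + PB1, a log2 fold change of -3.19 (SE 0.33, limma adjusted p = 0.000129). Without LPS, PB1 lowered it by -2.59 (SE 0.36, limma adjusted p = 8.71e-05), from 170, 176, 621 and 544 in CTR to 54.3, 53.9, 54.5 and 47.6. The replicate pairs were reversed between CTR and LPS: the log2 difference of LPS from CTR was 1.87 in replicates 1 and 2 and -1.20 in replicates 3 and 4. LPS against CTR was accordingly not called for this transcript, with a log2 fold change of 0.34 (SE 0.49, limma adjusted p = 0.646).

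LPS + PB1 against PB1, the response to LPS in cells that had received PB1, gave the most calls. Of 218 transcripts tested, 24 rose and 36 fell, which is 27.5% against 29.5% of all rows (13.9% higher and 15.6% lower) and 28.4% of coding rows. The groups did not overlap for 45.9% of the noncoding transcripts and for 47% of all rows. XR_005849533.2, at the floor with PB1 alone, was higher by at least 28.0-fold with LPS + PB1. XR_006934489.1, selected through LPS + PB1 alone, at 11.7, 12.9, 9.59 and 10.3 in LPS + PB1, had at most 1 read in any PB1 library and was at least 11.6-fold higher. The same transcript had 1.82, 5.16, 3.33 and 2.74 in CTR and 5.92, 5.96, 3.04 and 5.83 in LPS.

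**Figure D5:**
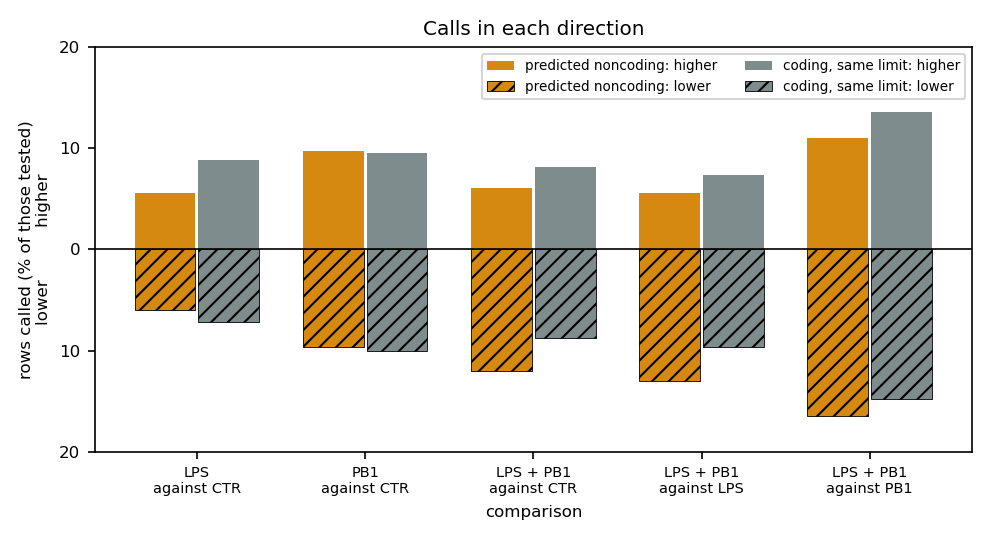
Percent of tested rows called higher (bars up) or lower (bars down) in each of the 5 comparisons, for the predicted noncoding transcripts and for coding rows past the same limit. The shares in both directions together are 11.6% and 16.1% for LPS against CTR and 27.5% and 28.4% for LPS + PB1 against PB1.

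Whether the response to LPS depended on PB1 was tested by the interaction term over all 16 libraries. It was called for 89 of 219 noncoding transcripts (40.6%), with 39 positive and 50 negative terms, against 44.5% of all 4651 rows tested (22.3% positive and 22.2% negative) and 45.4% of coding rows. With the means of the replicate pairs it was called for 39. In each of the 4 transcripts with the largest terms a group lay at the floor, so the size of the term is not a measured fold. The term was 11.79 for XR_005849533.2 (SE 0.59, limma adjusted p = 1.80e-10). It was 4.22 for XR_006934489.1, -7.09 for XR_006935206.1 and -5.34 for XR_006933514.1, each of which was selected through a single group. XR_005849533.2 was selected through CTR and LPS + PB1 only, so its term too follows in part from the selection.

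XR_005855708.2 and XR_005849533.2 were the 2 transcripts called in all 5 comparisons. XR_005855708.2 had 14.0, 10.8, 12.95 and 9.11 in CTR, 16.2, 19.7, 33.4 and 29.4 in LPS, 59.1, 48.9, 66.0 and 63.4 in PB1, and 4.14, 2.53, 5.57 and 5.55 in LPS + PB1. The 4 groups did not overlap, and the combined treatment was lower than any other group although each agent alone was higher than CTR. The log2 fold change was 1.03 for LPS (SE 0.24, limma adjusted p = 0.00829) and 2.35 for PB1 (SE 0.15, limma adjusted p = 6.56e-08) against CTR, and -1.45 for LPS + PB1 (SE 0.28, limma adjusted p = 0.00321). The interaction term was -4.83 (SE 0.36, limma adjusted p = 2.31e-08). XR_005855708.2 did not pass the limit on level in LPS + PB1. Its contrasts of LPS + PB1 with the other groups, and its interaction term, thus follow in part from the selection.

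Counted over the 5 comparisons, 128 transcripts of 219 (58.4%) had no call, 20 in 1, 38 in 2, 24 in 3, 7 in 4 and 2 in all 5, and 59.5% of coding rows were called in none. A difference of at least 4-fold between the highest and the lowest group mean was found for 17 transcripts (7.76%) and for 425 coding rows (10.6%). The highest group mean was in PB1 for 80 transcripts (36.5%), in LPS for 61 (27.9%), in LPS + PB1 for 53 (24.2%) and in CTR for 25 (11.4%). For coding rows the shares were 34.4%, 22.8%, 30.3% and 12.5%, in the same order. Of 215 transcripts tested for the LPS response both without and with PB1, 10 were called in both, which is 41.7% of the 24 called without PB1 and 17.5% of the 57 called with it, and 6 of the 10 went in the same direction. For coding rows the shares were 62.6% and 34.7%, with 64.8% in the same direction, and the difference was not tested. Of 213 tested for the PB1 response both without and with LPS, 14 were called in both, 36.8% of each list of 38, and 7 of these went in the same direction. For coding rows the shares were 41.1% and 48.3%, with 40.2% in the same direction.

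Of 84 transcripts with a mean of at least 100, 46 (54.8%) were called in no comparison, near the 58.4% of all 219, against 64.4% of coding rows of that level. The steadiest of these was XR_006935820.1, with a mean of 164.7 ± 11.7 for CTR, 159.7 ± 13.1 for LPS, 160.02 ± 7.24 for PB1 and 163.3 ± 8.21 for LPS + PB1 (SD, n = 4). It was picked after the values were seen, for the smallest difference between its group means.

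Genes of noncoding RNA processing and turnover were looked at beside these transcripts. Of 48 genes on the list, 5 were among the named rows, namely CSTF3 (a 3′ end cleavage factor), XRN2 (a nuclear exonuclease), METTL14 (a subunit of the RNA methyltransferase), AGO4 (an Argonaute protein) and DGCR8 (the partner of Drosha in microRNA maturation). AGO4, on chromosome 23, fell from a mean of 54.0 in PB1 to 35.3 in LPS + PB1, a log2 fold change of -0.62 (SE 0.14, limma adjusted p = 0.00367). The change was -0.58 without PB1 replicate 3, -0.54 without LPS + PB1 replicate 3 and -0.57 without LPS + PB1 replicate 4, each under 1.5-fold and no longer called. It was the only call among these 5 genes in the 5 comparisons, with limma 0 of 5 called in each of the others. DGCR8 was lower than CTR with PB1 (-0.26, limma adjusted p = 0.00983) and with LPS + PB1 (-0.32, limma adjusted p = 0.0174). CSTF3 was higher in LPS + PB1 than in PB1 (0.36, limma adjusted p = 0.0298). These changes were under 1.5-fold and so not called. At an unadjusted p under 0.05 the counts against CTR were 1 of 5 with LPS, 3 with PB1 and 2 with LPS + PB1. They were 1 when LPS + PB1 was set against LPS and 2 when it was set against PB1. No share over all rows is given at that limit, so these counts are not read as a trait of the list. The stricter limit of a limma adjusted p of at most 0.05 was reached by many rows. In the same order these were 1477 of 4514, 1934 of 4485, 1387 of 4495, 1455 of 4546 and 2239 of 4518 rows tested. The other 43 genes were not among the named rows.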

How the data were processed

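RNA-seq was made from 16 libraries of HD11 cells, 4 in each of 4 groups, with groups and replicate numbers taken from the labels. Alignment by the authors used HISAT2 and the GRCg7b assembly, and counting used HTSeq. No predicted row (XR_ or XM_) was found in the GRCg7b annotation used here, so the annotation behind these rows is not known. The sources used here name no strand-specific step, so antisense partners cannot be told apart. The deposited signal is not raw counts, since every value equals reads with 1 added, multiplied by a library-specific step (2.97 to 5.53) and rounded down. The study's methods state fewer libraries per group than the 4 in the labels.

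The signal was scaled to 1000000 per library and normalized by TMM (trims of 30% and 5%). Rows with at least 10 reads in 4 libraries and 15 in all were tested with limma (version 3.58.1, R 4.3.3, lmFit and eBayes with trend) on log2 signal, 2 groups a fit, without a replicate block and with no pseudocount beyond the added read. Adjusted p-values are Benjamini-Hochberg values over all rows tested. Calls needed an adjusted p of at most 0.05 and 1.5-fold. The interaction used all 16 libraries and no fold limit. Because of the filter, 213 of the 219 transcripts were tested in all 5 comparisons. Where all libraries of a group had 3 reads or fewer, the fold is a lower bound against the highest signal of 3 reads in a library of that group (0.859 to 1.04 over the libraries), which covers counting error only.

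Transcripts named are the 8 highest, the 2 largest called changes without overlap in each direction per comparison, the 2 largest interaction terms in each direction, those at the limit, and those called in all 5 comparisons. The transcripts and gene lists were chosen with earlier results of these data known. Replicate numbers were checked for pairing: deviations of same-numbered libraries correlated at 0.49 to 0.60 in every pair for LPS + PB1 against LPS, from the data and not from the labels, and not in every pair elsewhere. The script for the fits was tested on simulated data. A gene of the macrophage list is not reported here.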

Additional observations from a re-analysis of the deposited data

Results flagged for a closer look

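Single libraries stood apart from the other 3 of their group in 5 of 72 groups examined, and chance gives about 1 in 20. The 72 cover the named transcripts and the share of signal on XR_ rows, and all 5 were of named transcripts. XR_005852151.2 was 47.6 in PB1 replicate 4, with the others between 53.9 and 54.5. XR_006934489.1 was 3.04 in LPS replicate 3, with the others between 5.83 and 5.96, and 0.200 in PB1 replicate 2, with the others between 0.421 and 0.461. XR_006935206.1 was 0.444 in CTR replicate 1, with the others between 0.175 and 0.206, and 0.689 in LPS replicate 1, with the others between 0.206 and 0.217. In the last 3 of these groups the libraries differ by no more than 2 reads.

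The response to LPS differed with and without PB1, by the limma interaction term, in 89 of the 219 transcripts. This is 40.6%, against 44.5% of all rows and 45.4% of coding rows. The term was 11.79 for XR_005849533.2 (adjusted p = 1.80e-10), -7.09 for XR_006935206.1, -5.34 for XR_006933514.1 and 4.22 for XR_006934489.1, each with at least 1 group at the floor of 3 reads. The last 3 of these passed the limit on level through a single group, so their terms follow in part from the selection. XR_005849533.2 passed it through CTR and LPS + PB1 only, and the same holds for its term.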

How the results depend on the processing

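DESeq2 and edgeR on recovered reads were planned and not run, because the deposited values are a rounded signal. Without the fold limit, calls against CTR rose to 55 of 216 with LPS, 86 of 217 with PB1 and 69 of 216 with LPS + PB1. Calls of LPS + PB1 rose to 68 of 215 against LPS and 102 of 218 against PB1. Among all rows tested the counts were 1477 of 4514, 1934 of 4485, 1387 of 4495, 1455 of 4546 and 2239 of 4518, in this order. The means of replicate pairs were also used as 2 samples a group, which leaves fewer samples and does not take paired libraries as independent. Calls were then 9 for LPS against CTR, 15 for LPS + PB1 against CTR, 5 for LPS + PB1 against LPS and 39 for the interaction. Replicates 3 and 4 alone gave 43 calls with LPS and 61 with LPS + PB1 against CTR, and the cause was not tested. The pair counts here, and the counts below with a library left out or a block, have no share over all rows in the same setting. Leaving out each library in turn gave 24 to 31 calls with LPS, 40 to 45 with PB1 and 34 to 44 with LPS + PB1 against CTR, 37 to 40 against LPS, 58 to 64 against PB1 and 78 to 89 for the interaction. With the replicate number as a block, calls were 25, 42, 37, 46, 60 and 86 in the same order, and the 46 included all 40 of the fit without the block. The other settings tried (RLE size factors, no filter on low reads, all libraries in 1 fit, 1 more read added, replicates 1 and 2 alone, a mean level of 10 over all libraries) moved these counts by less than 1.5 times. Of 1328 values recomputed for the transcripts named by rule and AGO4, 1293 kept their side of the threshold and 35 did not, and no called value changed direction. Those 35 include XR_006937029.1 for LPS against CTR (lost in 9 of 13 settings), the calls gained with the replicate block, and XR_006937809.1 for the interaction. In addition, the number of transcripts was 240 or 189 with a limit on level of 5 or 20. Without the 14 transcripts of a mean under 10, calls against CTR were 22 with LPS, 35 with PB1 and 32 with LPS + PB1. LPS + PB1 then gave 37 against LPS and 52 against PB1, and the interaction gave 80. The shares of those tested, in this order, were 10.7%, 17.2%, 15.6%, 18%, 25.4% and 39%. For coding rows with a mean of 10 or more they were 14.7%, 18.1%, 15.8%, 15.7%, 26.6% and 44.9%.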
